A study of Mus musculus with 32 samples.

Results

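Axon guidance cues and their receptors were followed in the frontal cortex of mice that drank ethanol. Members were every array probe whose gene symbol begins as a class 3 to 7 semaphorin (Sema), a plexin (Plxn), an Eph receptor (Epha, Ephb), an ephrin (Efna, Efnb), a netrin (Ntn, Ntng), Slit1 to Slit3, Robo1 to Robo4, Nrp1, Nrp2 or Unc5. The rule used names only and no measured value, but it was chosen with earlier results of these data known. It found 102 of the 25697 probes on the Illumina MouseRef-8 v2.0 array, for 66 of its 18138 gene symbols. Unc50 and Unc5cl fall under the rule by name alone. They are not netrin receptors, and neither was tested.

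Each of 32 female mice gave 1 array. All carried the C57BL/6J x FVB/NJ F1 strain label, and the Methods describe hybrids from both directions of that cross. The 20 ethanol mice could drink 20% ethanol or water from separate bottles for a few hours in the dark phase on 20 days. The 12 control mice were untreated. The tissue was the dorsal part of a frontal slice cut free of the olfactory bulbs, taken 20 hours after the last drinking session. The ages of the mice are not given in the sources used here.

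Guidance cues steer growing axons by attraction or repulsion, and many of them stay in use at adult synapses and blood vessels. Ephrins are held on the cell surface and signal through Eph receptor tyrosine kinases on the neighbouring cell, with signalling possible in both directions. Semaphorins act through plexins, with neuropilins as co-receptors for the secreted class 3 members. Netrins repel through Unc5 receptors, and Slits repel through Robo receptors.

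The arrays sat on 4 chips with 8 positions each, A to H, and this layout bears on every difference below. Chips 1 and 2 held 16 ethanol mice, and chip 4 held 8 control mice. Chip 3 alternated the treatments: its 4 ethanol mice took A, C, E and G (the odd positions below), and its 4 control mice took B, D, F and H (the even ones). Treatment therefore cannot be told apart from chip in chips 1 and 2 against chip 4, and cannot be told apart from odd or even position on chip 3. On chips 1, 2 and 4 the odd positions held the mice with the lower numbers of each chip. Odd or even position therefore cannot be told apart from mouse number there. RNA extraction batches held both groups according to the Methods, but the labels do not pair arrays with batches. The control mouse C66 stood apart, with 9480 detected probes and 29 detected guidance probes. The ethanol arrays detected 10644 to 11544 probes and 39 to 48 guidance probes, and the control arrays up to 11413 and 47.

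Short stretches of the array probes show what was read for the genes on which the results turn. Each line gives the first 30 of 50 bases, 5′ to 3′, as the deposited array annotation lists them. The starting base in the listed transcript follows the gene name where a gene has 2 tested probes. Capitals mark the 24 bases that both Nrp1 lines show. The lower-case bases that end the second Nrp1 line are shared too, but lie beyond the part shown of the first.
Efna5: ctcatggccctctctgccattgtctttcat
Sema4f: gtgagggacctcgaaccccggtgaggatgc
Robo4: ggagaaaggtcgtggatgcagtgggcccta
Epha7, base 1620: ggcaggagccggagcatcccaatggagtca
Epha7, base 3874: gtttgctgattggcaggtagttcaaaattg
Ntng1, base 3644: ggaagacggattgatggtcactagcttgga
Ntng1, base 3830: gatttatggtgatcatgtgactctagggat
Nrp1, base 3511: gctggcACTAGGCGTTATTCAGTGGGCCCT
Nrp1, base 3517: ACTAGGCGTTATTCAGTGGGCCCTtttgat
The annotation places Efna5 on mouse chromosome 17, Sema4f on 6, Robo4 on 9, Epha7 on 4, Ntng1 on 3 and Nrp1 on 8. It names no genome build, so no genome positions are given. The Epha7 probes lie 2254 bases apart in the transcript and the Ntng1 probes 186 bases apart. The Nrp1 probes start 6 bases apart and share 44 bases, so they are close to a repeated measurement of the same stretch.

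A probe was tested when its detection p-value was below 0.01 on at least 24 of the 32 arrays. This left 37 guidance probes for 31 genes. Of the 65 others, 40 were detected on no array and 25 on 1 to 23 arrays. Thus 35 guidance genes had no tested probe, and 18 of them had no probe detected on any array. Semaphorins made up 13 of the tested probes, for 10 of their 18 genes. The ephrins were tested for 2 of 5 ephrin-A genes and 2 of 3 ephrin-B genes, and the Eph receptors for 3 of 9 EphA and 3 of 5 EphB genes. Among receptors for the other cues, 2 of 8 plexins, 1 of 2 neuropilins, 3 of 4 Unc5 receptors and 2 of 3 Robos were tested. Of the remaining ligands, 2 of 4 netrins and 1 of 3 Slits were tested. The untested probes closest to the requirement were those of Plxnd1 and Sema4g, each detected on 22 arrays, one of Ntn2l on 20, one of Epha7 on 19, Efnb3 on 18, Sema4d on 15 and Plxnb3 on 10. An undetected probe shows only that its signal did not exceed that of the negative control beads on that array.

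**Figure D1:**
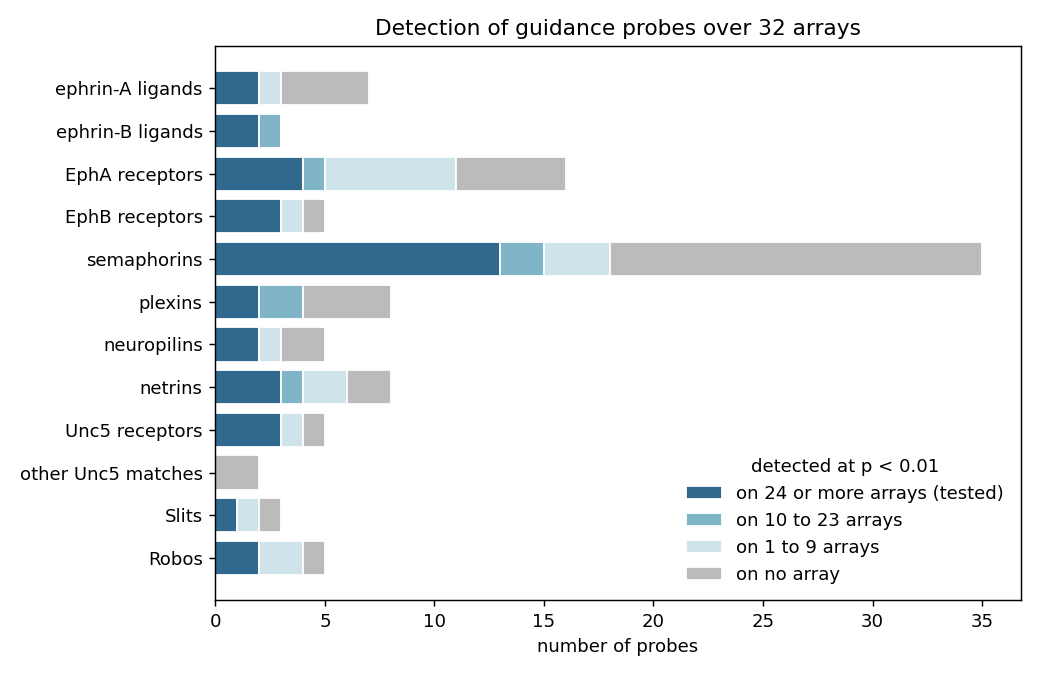
Number of guidance probes in each family (horizontal axis), split by the number of the 32 arrays on which a probe was detected at p < 0.01. Semaphorins had the most probes, 35, of which 13 were tested and 17 were detected on no array.

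Values below are normalized log2 signals, and a difference is ethanol minus control on that scale. Levels of different probes are not set against each other. A gene was called when limma's p-value, adjusted by the Benjamini-Hochberg method over all 10187 tested probes, gave a false discovery rate (FDR) below 1%, and a wider call used an FDR below 10%. p-values measure the spread between mice.

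Over all 32 arrays, the ligand Efna5 was higher in ethanol mice, and the semaphorin Sema4f and the endothelial receptor Robo4 were lower. These 3 of 37 probes (8.11%) were the members called at an FDR below 1%, and 8.18% of all tested probes were called, so the guidance probes were called about as often as any others. By direction, 1 probe was higher (2.7%, against 3.65% of all) and 2 were lower (5.41%, against 4.53% of all). At an FDR below 10%, 6 members (16.2%) were called against 25.5% of all tested probes. The 2 higher members (5.41%, against 12% of all) were Efna5 and Sema4a. The 4 lower members (10.8%, against 13.5% of all) were Efnb2, Robo4, Sema4f and Unc5a. Without C66 none of the 3 was called at an FDR below 1%, with adjusted p-values of 0.0121 for Efna5, 0.0222 for Robo4 and 0.0217 for Sema4f. The median difference of the tested guidance probes was 0.00071, with 19 higher and 18 lower, and that of all tested probes was -0.0037. The median size of the difference was 0.064 for guidance probes and 0.066 for all tested probes. Within groups of the same treatment and chip, the SD of a guidance probe had a median of 0.13.

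**Figure D2:**
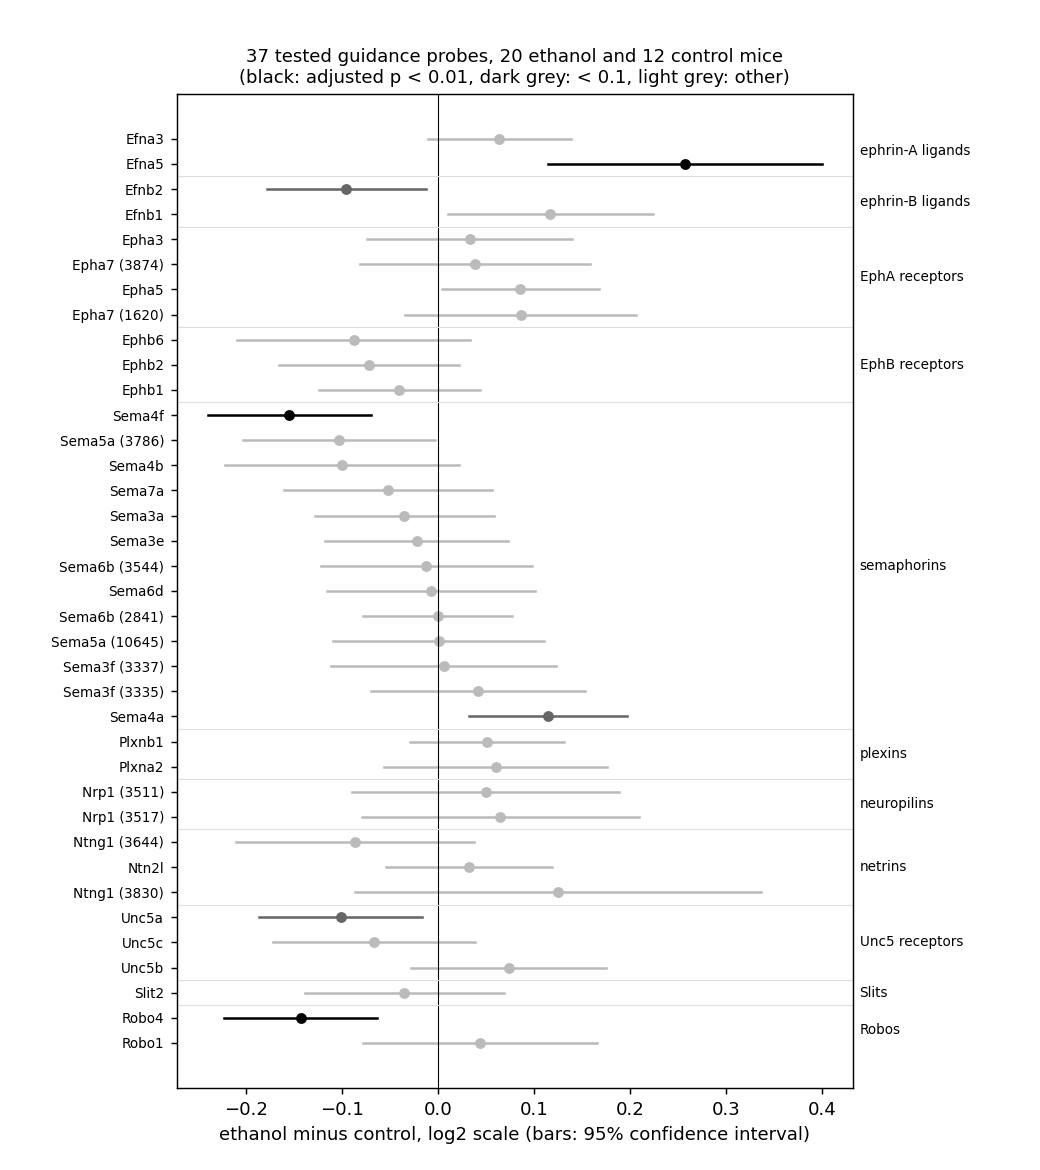
Difference between 20 ethanol and 12 control mice (horizontal axis, log2 scale) for the 37 tested guidance probes by family, with 95% confidence intervals; numbers in brackets give the starting base of the probe in its transcript where a gene has 2. Efna5 lies farthest to the right at 0.26, and Sema4f and Robo4 farthest to the left at -0.16 and -0.14.

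Among the ephrins, Efna5 encodes a ligand anchored in the membrane by a lipid and is known for the mapping of cortical and visual projections. Its values ran from 9.95 to 10.67 with a median of 10.23 in ethanol mice. In control mice they ran from 9.66 to 10.43 with a median of 10.01. Another Efna5 probe was detected on no array. The groups overlapped, and 17 of 20 ethanol mice lay above the control median. The difference was 0.26 ± 0.070 (SE), a 1.20-fold higher signal, with an adjusted p of 0.00884 in limma. On chip 3, the ethanol mice A46, A47, A49 and A50 measured 10.59, 10.40, 10.30 and 10.18. The control mice C52, C54, C55 and C56 measured 9.88, 9.91, 9.93 and 9.99. Every ethanol mouse of that chip was above every control mouse, and the difference was 0.44 ± 0.081 (limma adjusted p = 0.00315). Chips 1 and 2 (means 10.20 and 10.25) against chip 4 (10.03) gave 0.19 ± 0.082 (adjusted p = 0.0746). Efna5 was thus higher in the ethanol mice in both comparisons. It also differed by position where treatment did not vary: on chips 1, 2 and 4, even positions were lower than odd ones, with a difference of -0.26 ± 0.068 (adjusted p = 0.0133). With odd or even position in the model over all arrays, the difference of Efna5 was 0.19, with an adjusted p of 0.0202. With chip as a fixed block instead, it was 0.44 ± 0.13 (adjusted p = 0.0661). With chip and odd or even position both in the model, it was 0.18 ± 0.13 and not called (adjusted p = 0.724).

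The other tested ephrin-A ligand, Efna3, had a difference of 0.064 ± 0.037 and was not called (limma adjusted p = 0.227). The ephrin-B ligands span the membrane and can signal back into the cell that carries them. Efnb1 ranged from 8.09 to 8.64 in ethanol mice (median 8.38) and from 7.99 to 8.46 in control mice (median 8.27). Its difference over all arrays was 0.12 ± 0.052 (limma adjusted p = 0.114), and no call was made. On chip 3 its ethanol mice measured 8.46, 8.33, 8.49 and 8.49 and its control mice 8.06, 7.99, 8.05 and 8.30. There the groups did not overlap, and Efnb1 was higher in ethanol mice by 0.34 ± 0.077 (limma adjusted p = 0.00991). The chip 4 control mice had a mean of 8.33 ± 0.11 (SD, n = 8), close to the ethanol means of 8.32 ± 0.13 on chip 1 and 8.39 ± 0.16 on chip 2. The difference of chips 1 and 2 from chip 4 was 0.022 ± 0.056 (limma adjusted p = 0.802).

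Efnb2, the ephrin of arterial vessels and of many neurons, ranged from 7.46 to 7.83 in ethanol mice (median 7.64) and from 7.51 to 7.89 in control mice (median 7.73). It was lower in ethanol mice at the wider threshold, with a difference of -0.096 ± 0.041 (limma adjusted p = 0.0925), with 3 of 20 ethanol mice above the control median. On the chips with 1 treatment each it was lower, with a difference of -0.14 ± 0.046 (adjusted p = 0.0197). On chip 3 it was -0.014 ± 0.080 (adjusted p = 0.938).

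Among the Eph receptors, no EphA or EphB gene was called over all arrays at either threshold. The 4 EphA probes all had positive differences, from 0.033 to 0.086, and the 3 EphB probes all had negative ones, from -0.088 to -0.040. Of all tested probes, 48.4% had positive differences. On chip 3, Epha3 and Epha5 gave 0.063 and 0.027 and the 2 Epha7 probes -0.34 and -0.018. With chip and odd or even position both in the model, Epha3 and Epha5 were at -0.089 and -0.022. The Epha7 probes were then at -0.28 and 0.019, and the EphB probes stayed negative in both cases. Epha5, a receptor for ephrin-A ligands in the forebrain, had the lowest all-array adjusted p of the Eph probes. Its difference was 0.085 ± 0.040 (limma adjusted p = 0.135). It was higher on chips 1 and 2 than on chip 4 at the wider threshold, by 0.11 ± 0.045 (adjusted p = 0.0704). Ephb2, a receptor with known roles at excitatory synapses, differed by -0.072 ± 0.046 (limma adjusted p = 0.279).

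Epha7, an EphA receptor with roles in cortical maps and spines, changed in opposite directions in the 2 parts of the design. By the probe at base 1620, the chip 3 ethanol mice A46, A47, A49 and A50 measured 8.23, 8.43, 8.34 and 8.29. The control mice C52, C54, C55 and C56 measured 8.75, 8.74, 8.72 and 8.44. The ethanol mice lay below all the control mice, and the difference was -0.34 ± 0.079 (limma adjusted p = 0.0125). On chips 1 and 2 the means were 8.60 ± 0.083 and 8.56 ± 0.14 (SD, n = 8 each), and on chip 4 the control mean was 8.33 ± 0.11 (n = 8). That difference was 0.25 ± 0.051 (limma adjusted p = 0.00041). The difference between these 2 comparisons was -0.59 ± 0.097 (adjusted p = 0.000317). The probe at base 3874 of the same transcript did not follow: its differences were -0.018 ± 0.069 on chip 3 and 0.084 ± 0.064 for chips 1 and 2 against chip 4, neither of them called. The distance between the probes on chip 3, 0.32, was larger than for any other gene with 2 tested probes. Over all arrays the probes differed by 0.086 and 0.038 between the treatments.

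Ephb6, an Eph receptor without kinase activity, was lower in the ethanol mice of chip 3. Its 4 ethanol mice measured 8.50, 8.53, 8.38 and 8.52 and its 4 control mice 8.82, 9.10, 8.88 and 8.72. The groups did not overlap and differed by -0.40 ± 0.080 (limma adjusted p = 0.00516). It was also the guidance gene called at an FDR below 1% between positions on chips 1, 2 and 4, where even positions were higher by 0.17 ± 0.039 (adjusted p = 0.00605). The control mice of chip 3, which were higher, sat at the even positions. The contrast of chips 1 and 2 with chip 4 was 0.026 ± 0.052 (adjusted p = 0.747), with means of 8.80, 8.56 and 8.66, so that the chips of ethanol mice differed from each other by more than either did from the control chip.

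**Figure D3:**
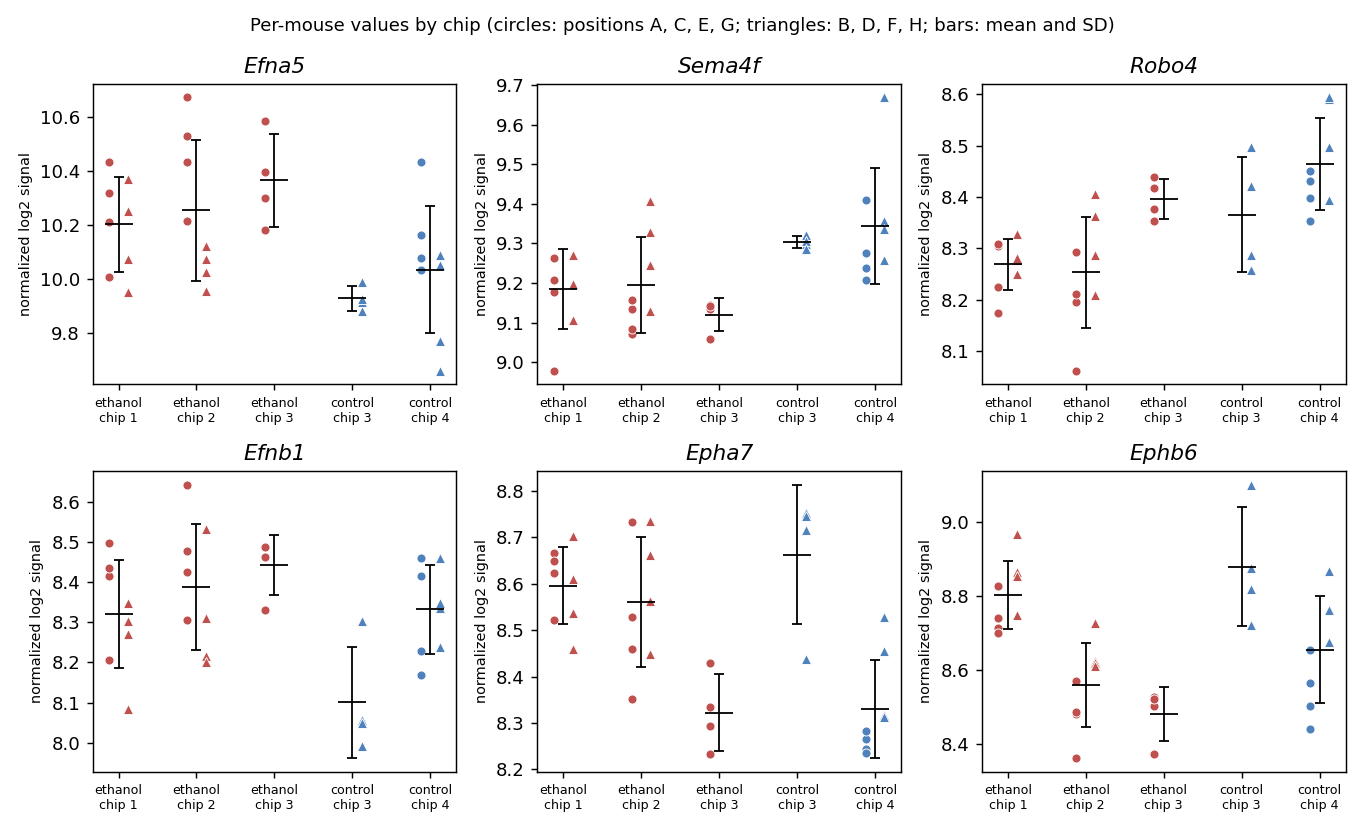
Normalized log2 signal of every mouse (vertical axes) for Efna5, Sema4f, Robo4, Efnb1, Epha7 (base 1620) and Ephb6, by treatment and chip; circles are positions A, C, E and G, triangles B, D, F and H, and bars give the mean and SD. Efna5 and Sema4f separate the treatments on chip 3 in the direction of their all-array differences, which include the chip 3 mice. Epha7 is lower in ethanol mice on chip 3 but higher on chips 1 and 2 than on chip 4.

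Among the semaphorins, Sema4f, a membrane-spanning class 4 member, was lower in ethanol mice. Its values ran from 8.98 to 9.41 with a median of 9.15 in ethanol mice. In control mice they ran from 9.21 to 9.67 with a median of 9.30. The ranges overlapped, with 2 of 20 ethanol mice above the control median, and the difference was -0.16 ± 0.042 (limma adjusted p = 0.00834), a 1.11-fold lower signal. On chip 3 its ethanol mice measured 9.13, 9.06, 9.14 and 9.14 and its control mice 9.30, 9.32, 9.31 and 9.29. The chip 3 groups did not overlap, and the difference there was -0.18 ± 0.063 (adjusted p = 0.0727). The other chips gave a difference of -0.15 ± 0.050 (adjusted p = 0.0186), so Sema4f was lower at the wider threshold in both comparisons. With each chip 3 mouse left out in turn, the chip 3 call held in 2 of 8 fits. Even positions were higher than odd ones on chips 1, 2 and 4 by 0.11 ± 0.047 (adjusted p = 0.102). Without C66, the control mouse with the highest Sema4f value, the difference over all arrays was -0.12 and the adjusted p 0.0217. With odd or even position in the model, the Sema4f difference was -0.13 (limma adjusted p = 0.0206). With chip as a fixed block instead, it was -0.18 ± 0.081 (adjusted p = 0.201). With chip and odd or even position both in the model, it was -0.069 ± 0.086 and not called (adjusted p = 0.852).

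Sema4a, another class 4 semaphorin, was higher in ethanol mice at the wider threshold, by 0.11 ± 0.040 (limma adjusted p = 0.0424). Its values ran from 10.73 to 11.08 (median 10.94) in ethanol mice and from 10.69 to 10.90 (median 10.79) in control mice. On chip 3 the lowest ethanol mouse, at 10.93, was above the highest control mouse, at 10.90, and the difference was 0.20 ± 0.069 (adjusted p = 0.0737). Chips 1 and 2 against chip 4 gave 0.093 ± 0.045, which was not called (adjusted p = 0.127). Even and odd positions of chips 1, 2 and 4 differed by 0.00090 ± 0.045 (adjusted p = 0.994). With chip and odd or even position both in the model, the Sema4a difference was 0.20 ± 0.086 and not called (adjusted p = 0.437). Sema4b, also of class 4, gave -0.10 ± 0.060 over all arrays (limma adjusted p = 0.247). It was lower on chips 1 and 2 than on chip 4, with a difference of -0.20 ± 0.063 (adjusted p = 0.0147), and had a difference of 0.098 ± 0.080 on chip 3 (adjusted p = 0.471).

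The secreted class 3 semaphorins were not called over all arrays. Sema3a, a repellent that acts through Nrp1 and A-type plexins, gave -0.035 ± 0.046, and Sema3e gave -0.023 ± 0.047. Sema3f, which acts through Nrp2, gave 0.0055 and 0.042 by probes that start 2 bases apart. Sema5a gave 0.00071 by one probe and -0.10 by another that starts 6859 bases away, with adjusted p-values of 0.995 and 0.14. The Sema6b probes gave -0.00070 and -0.012. Sema6d gave -0.0072 ± 0.053, and Sema7a, which is anchored by a lipid, gave -0.052 ± 0.053. The semaphorin family thus held 4 probes with positive and 9 with negative differences, with a median of -0.012.

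The receptors of semaphorins that could be tested showed no call. The plexins Plxna2 and Plxnb1 gave 0.060 ± 0.057 and 0.051 ± 0.039. The Nrp1 probes, which share most of their bases, gave 0.049 ± 0.068 and 0.065 ± 0.071, a distance of 0.015. The same pair gave, on chip 3, 0.015 and 0.13, a distance of 0.11 between readings of almost the same stretch.

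Robo4, a Robo receptor of endothelial cells known for its part in vessel stability, was lower in ethanol mice. Its values ran from 8.06 to 8.44 with a median of 8.29 in ethanol mice. In control mice they ran from 8.26 to 8.59 with a median of 8.43. Only 1 of 20 ethanol mice lay above the control median, and the difference was -0.14 ± 0.039 (limma adjusted p = 0.00884). On the chips with 1 treatment each, chips 1 and 2 had means of 8.27 ± 0.051 and 8.25 ± 0.11 (SD, n = 8 each) and chip 4 had 8.46 ± 0.090 (n = 8). That contrast was -0.20 ± 0.042 (limma adjusted p = 0.000512). On chip 3 the ethanol mice measured 8.44, 8.35, 8.38 and 8.42 and the control mice 8.29, 8.26, 8.42 and 8.50. These overlapped, and the chip 3 difference of 0.031 ± 0.071 (adjusted p = 0.83) differed from that of the other chips by 0.23 ± 0.081 (adjusted p = 0.0588). Of the other Robo4 probes, 1 was detected on 1 array and 1 on no array. Of the 8 endothelial marker genes, 6 were tested and Cdh5 and Kdr were detected on no array. Their summed level, on a log2 scale, was 12.06 ± 0.070 in ethanol mice (range 11.94 to 12.18) and 12.02 ± 0.075 in control mice (range 11.89 to 12.14), with 5 of the 6 genes higher in ethanol mice. On chip 3 the sum was higher in ethanol mice by 0.17. The part of endothelial content in the Robo4 result was not tested. In samples of whole tissue such as these, fewer cells of a type and less RNA per cell cannot be told apart.

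The neuronal receptor Robo1 was not called over all arrays (0.043 ± 0.060, limma adjusted p = 0.659). On chip 3 its ethanol mice measured 9.30, 9.21, 9.08 and 9.11 and its control mice 8.90, 9.01, 8.80 and 9.06. These groups did not overlap, and Robo1 was higher in ethanol mice there by 0.23 ± 0.077 (adjusted p = 0.0625). On chips 1, 2 and 4 it was lower at even positions, with a difference of -0.18 ± 0.061 (adjusted p = 0.0521). Its ligand Slit2 gave -0.035 ± 0.051 over all arrays and -0.15 ± 0.096 on chip 3, and neither was called.

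Of the Unc5 receptors, through which netrins repel axons, Unc5a was lower in ethanol mice at the wider threshold. Its values ran from 7.75 to 8.18 (median 7.96) in ethanol mice and from 7.91 to 8.27 (median 8.03) in control mice, and the difference was -0.10 ± 0.042 (limma adjusted p = 0.0812). It was -0.20 ± 0.071 on chip 3 (adjusted p = 0.0864) and -0.068 ± 0.049 for chips 1 and 2 against chip 4 (adjusted p = 0.321). Its even positions were higher on chips 1, 2 and 4, by 0.13 ± 0.043 (adjusted p = 0.0418). Unc5b gave 0.074 ± 0.050 and Unc5c -0.067 ± 0.051, and neither was called. Of the netrins, Ntn2l, now named Ntn3, gave 0.032 ± 0.042. Netrin-G1 (Ntng1), a lipid-anchored relative of the netrins that binds the synaptic protein Lrrc4c, had probes with opposite signs over all arrays, 0.12 ± 0.10 at base 3830 and -0.087 ± 0.061 at base 3644, neither of them called. The first was higher in ethanol mice of chip 3 by 0.29 ± 0.078 (limma adjusted p = 0.027), with ethanol mice at 9.28, 9.37, 9.46 and 9.25 and control mice at 9.19, 8.89, 9.10 and 9.03. The second gave 0.11 ± 0.081 (adjusted p = 0.409).

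Chip 3 was the chip that both treatments shared. There 3 members (8.11%) were called at an FDR below 1%, against 3.26% of all tested probes, and these were Efna5, Efnb1 and Ephb6. At an FDR below 10%, 10 members (27%) were called, against 16.3% of all. Efna5, Efnb1, Ntng1, Robo1, Sema4a and Sema6b were higher (16.2%, against 7.93% of all). Sema6b was called by its probe at base 3544 (0.26, limma adjusted p = 0.0474) and not by that at base 2841 (0.098, adjusted p = 0.42). Epha7, Ephb6, Sema4f and Unc5a were lower (10.8%, against 8.36% of all). When each of the 8 mice was left out in turn, between 6 and 9 members were called. The calls among all tested probes then ran from 974 to 1715 (1660 with all 8 mice). Efna5, Efnb1, Epha7, Ephb6 and Ntng1 were called every time. Sema6b was called in 6 of the 8 fits, Robo1 and Sema4a in 4, and Sema4f and Unc5a in 2. The median difference of the guidance probes on this chip was 0.027, and that of all tested probes -0.00074.

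Chips 1 and 2 against chip 4 called 2 members at an FDR below 1% (5.41%, against 15.1% of all), Epha7 as higher and Robo4 as lower. At an FDR below 10%, 9 members (24.3%) were called, against 35.4% of all. The higher ones were Efna5, Epha5 and Epha7 (8.11%, against 16.8% of all). The lower ones were Efnb2, Robo4, Sema3a, Sema4b, Sema4f and Sema6b (16.2%, against 18.7% of all). Sema6b was called at base 3544 (-0.14, limma adjusted p = 0.0358) and not at base 2841 (-0.051, adjusted p = 0.329). The 2 comparisons share no mouse. Their differences had the same sign for 20 of the 37 guidance probes (54.1%) and for 50.9% of all tested probes. Efna5 and Sema4f were called at the wider threshold with the same sign in both, and Epha7 (base 1620) and Sema6b (base 3544) with opposite signs. The chip 3 call of Sema4f held in 2 of the 8 fits with a mouse left out, and that of Efna5 in all 8. The test of the difference between the comparisons called 6 members at an FDR below 10% (16.2%, against 16% of all): Efnb1, Epha7, Ephb6, Robo4, Sema3a and Sema6b. Sema3a and Sema6b lie outside the rule for named genes and were named after their values were seen. Other members outside that rule, such as Efna3, Sema7a and Plxna2, are described with their families.

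**Figure D4:**
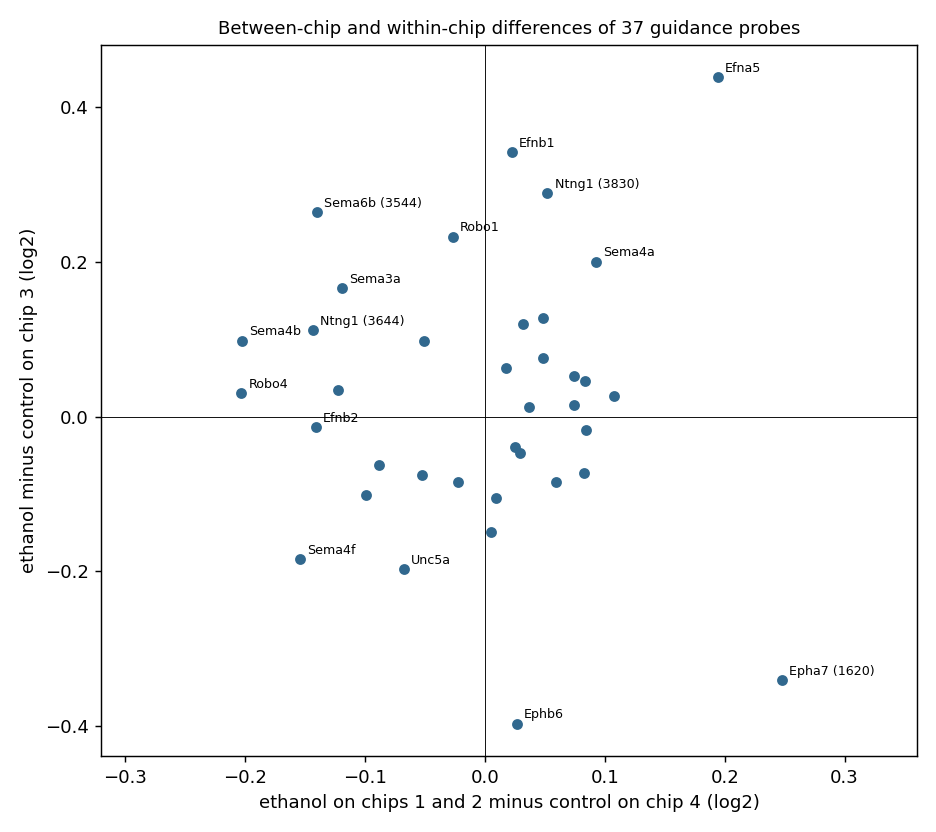
Difference on chip 3 (vertical axis) against the difference of chips 1 and 2 from chip 4 (horizontal axis), both log2, for the 37 tested guidance probes. Efna5 is high on both axes and Sema4f low on both, while Epha7 (base 1620) is at -0.34 on chip 3 and 0.25 between the other chips.

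Position could be measured apart from treatment on chips 1, 2 and 4, since treatment did not vary within those chips. It could not be measured apart from mouse number, which was lower at the odd positions of each chip. Between even and odd positions, 1 member (2.7%), Ephb6, was called at an FDR below 1%, against 3.22% of all tested probes. At an FDR below 10%, 7 members (18.9%) were called, against 20.3% of all. Ephb6 and Unc5a were higher at even positions (5.41%, against 9.99% of all). Efna5, Epha3, Robo1, Sema3f and Sema6b were lower there (13.5%, against 10.3% of all). Sema6b was called at base 3544 and not at base 2841, and Sema3f at base 3337 and not at base 3335. For 26 of the 37 guidance probes (70.3%), and for 68.7% of all tested probes, the odd minus even difference on these chips had the same sign as ethanol (odd) minus control (even) on chip 3. With chip and odd or even position both in the model, no member was called at an FDR below 10%. The lowest adjusted p of a member was then 0.29 in limma, 4 members had an unadjusted p below 0.05, and 7 of all 10187 tested probes were called.

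**Figure D5:**
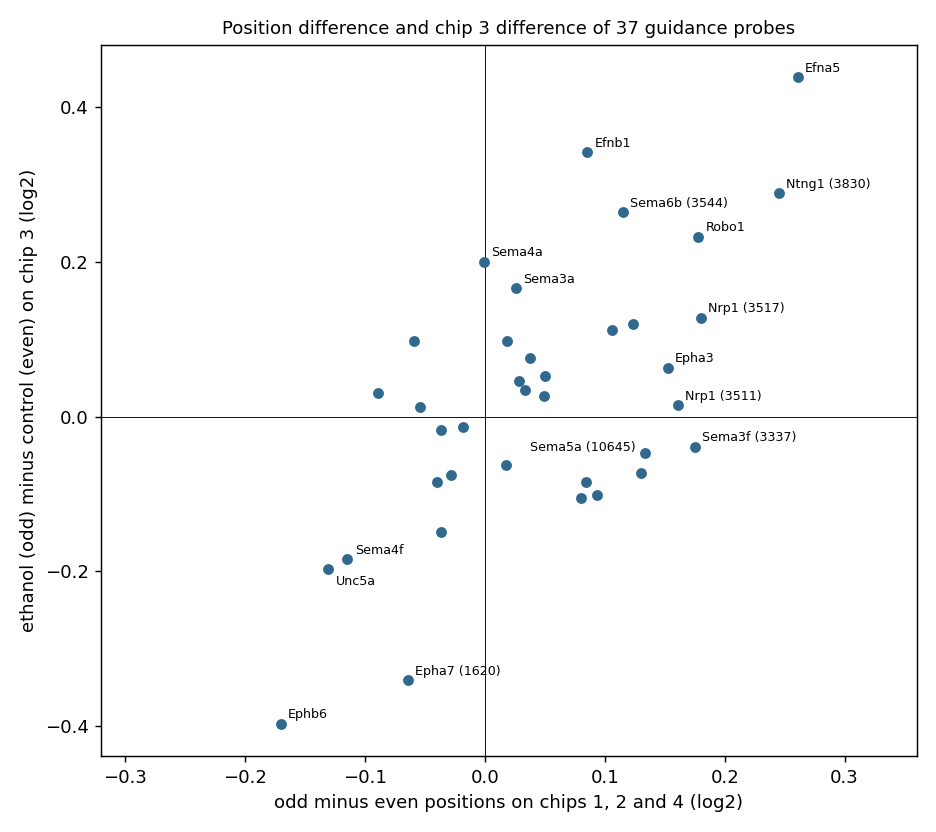
Difference between ethanol (odd) and control (even) mice on chip 3 (vertical axis) against the odd minus even difference on chips 1, 2 and 4 (horizontal axis), both log2, for the 37 tested guidance probes. Efna5 (0.44 on chip 3), Ntng1 at base 3830 and Robo1 lie high on both axes and Ephb6 low on both, while Sema4a is at 0.20 on chip 3 and near 0 by position.

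Markers of cell types and neighbouring regions also moved on chip 3. Of 8 olfactory bulb markers, 4 were tested, and their summed log2 level was 11.87 to 12.10 in the ethanol mice of chip 3 and 10.62 to 11.55 in its control mice, without overlap. All 4 were higher in its ethanol mice. On chips 1, 2 and 4 the same sum was lower at even positions, with a difference of -0.48. The summed level of 6 tested astrocyte markers was higher by 0.29 in the ethanol mice of chip 3, and that of 9 tested oligodendrocyte markers was lower, with a difference of -0.29. The sum of 5 tested markers of GABAergic interneurons was 14.33 to 14.38 in those ethanol mice and 14.09 to 14.22 in the control mice of the chip, also without overlap. Of these 5 genes, 4 were higher in ethanol mice on chip 3 and 2 over all arrays. Gad2 and Lhx6, also on that list, were detected on no array. The 1 tested choroid plexus marker was at 7.77 to 8.15 and 7.45 to 7.69, again without overlap. Clic6, Folr1 and Kl, also on the choroid plexus list, were detected on no array. Striatal markers (4 tested) differed by -0.18, and those of microglia and oligodendrocyte precursors by -0.031 and 0.060. The sum of 4 tested glutamatergic markers was lower, with a difference of -0.27 on chip 3 and of -0.17 over all arrays, with 0 of 4 genes higher over all arrays. Neurod6, one of the markers that define those neurons, was detected on no array. The part of these shifts in the guidance results was not tested.

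Other genes of the guidance pathways were described from a list of 89 symbols, of which 48 were tested by 62 probes. That list, too, was chosen with earlier results of these data known. Of these, 7 genes were called over all arrays at an FDR below 1%, which is 11.3% of the probes against the 8.18% of all. All 7 were cytoplasmic effectors, the proteins that carry a guidance signal to the cytoskeleton (7 of 42 probes, 16.7%). None of the 14 tested co-receptors and other cues (20 probes) was called. At the wider threshold 4 of these genes were called, where 25.5% of all tested probes were. Cdc42, a small GTPase that acts on actin, was higher by 0.30 ± 0.064 (limma adjusted p = 0.00107), its kinase target Pak3 by 0.30 ± 0.074, the cytoskeletal kinase Rock2 by 0.25 ± 0.059 and the Ras GTPase activator Rasa1 by 0.29 ± 0.076. Ppp3ca, the catalytic subunit of calcineurin, was higher by 0.21 ± 0.050 at 1 of its 3 tested probes. Limk1, the kinase that inactivates cofilin, was lower, with a difference of -0.23 ± 0.059, and so was 1 probe of the adaptor Gipc1, with -0.25 ± 0.068. The other 3 tested Gipc1 probes were not called, with differences of -0.10, 0.0095 and 0.074, so the probes of this gene differed in sign. Ppp3ca had 2 further tested probes, at 0.20 and 0.13, that were not called at an FDR below 1%. On chip 3, Cdc42, Pak3, Rock2 and Ppp3ca differed by 0.086, 0.036, 0.026 and 0.0073 at the same probes, and none of these was called there. Rasa1 (0.36), the called Gipc1 probe (-0.24) and Limk1 (-0.29) were called at the wider threshold on chip 3. Their signs were those of the all-array differences, which include the chip 3 mice. Chips 1 and 2 against chip 4 share no mouse with chip 3. There Cdc42, Pak3, Rock2 and Ppp3ca gave 0.38, 0.44, 0.36 and 0.31 at the same probes. Rasa1, Gipc1 and Limk1 gave 0.26, -0.22 and -0.20, and treatment cannot be told apart from chip in that comparison.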

How the data were processed

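Frontal cortex RNA of 32 mice (20 ethanol, 12 control) was measured on Illumina MouseRef-8 v2.0 arrays, and the labels give condition, mouse, chip and position. The authors deposited a table that is not normalized, holding the mean bead intensity of each probe and its detection p-value relative to negative controls; other columns give the bead standard error and bead number. Values of 0 columns lacked a sample. The submitters' processing notes name lumi and limma, and their versions are not given in the sources used here.

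Intensities were variance-stabilized from the bead standard errors, after the transform that the Methods name, and quantile-normalized in R 4.3.3 with data.table (version 1.17.8). The filter kept 10187 of 25697 probes, those detected at p < 0.01 on 24 or more of the 32 arrays (75%). They were tested by limma 3.58.1 with Benjamini-Hochberg adjustment over all of them. Over all arrays no covariate was used. Chip 3 was fitted alone. Chips 1 and 2 against chip 4, and the difference between the comparisons, were contrasts of a model with 5 groups of treatment and chip. Even and odd positions were compared on chips 1, 2 and 4 with chip as a block. A gene was called when any tested probe was. The precision is limited by the number of arrays.

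Named genes were those called at an FDR below 1%, then the 6 largest increases and 6 largest decreases over all arrays, the 5 in each direction on chip 3, the 4 in each direction by position, and genes whose probes differed in sign, each by its probe of highest mean. Members and gene lists were chosen with earlier results of these data known. Of the 66 symbols, 60 matched RefSeq genes by identifier, and Ntn2l has a newer symbol there.

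Alternatives were log2 without stabilization, normexp background with an offset of 16, median scaling, other detection filters, chip as a fixed or random block, position as a covariate, array weights and arrays left out. The scripts were tested on simulated data. Figures used Python 3.11.15, numpy 2.4.6, pandas 2.3.3 and matplotlib 3.10.9.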

Additional observations from a re-analysis of the deposited data

Results flagged for a closer look

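For the 19 named genes, each of the 5 groups of treatment and chip was searched for a mouse far from the rest of its group. This marked 9 of 95 groups, and chance alone marks about 1 in 20. On chip 3, the ethanol mouse A47 was low for Efnb1 (8.33, next value 8.46) and for Sema4f (9.06, next 9.13), and A49 was low for Ephb6 (8.38, next 8.50). Among the chip 3 control mice, C54 was high for Epha5 (7.57, next 7.51), C55 was high for Unc5c (8.52, next 8.34) and C56 was low for Epha7 (8.44, next 8.72). On chip 4, C57 was high for Robo1 (9.50, next 9.16) and C66 was high for Sema4f (9.67, next 9.41). On chip 2, A44 was low for Sema5a (9.19, next 9.43).

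For 6 genes the difference on chip 3 and that of chips 1 and 2 against chip 4 were themselves different, by limma at an FDR below 10%. Epha7 (base 1620) had the lowest adjusted p, with -0.59 ± 0.097 (SE, adjusted p = 0.000317). Ephb6 differed by -0.42 ± 0.10 (adjusted p = 0.00642) and Sema6b (base 3544) by 0.40 ± 0.097 (adjusted p = 0.0071). Efnb1 differed by 0.32 ± 0.11 (adjusted p = 0.0497), Sema3a by 0.29 ± 0.089 (adjusted p = 0.0354) and Robo4 by 0.23 ± 0.081 (adjusted p = 0.0588). With odd or even position in the model, Epha7 was at -0.52 (adjusted p = 0.00514), Robo4 at 0.32 (adjusted p = 0.0274) and Sema6b at 0.29 (adjusted p = 0.0956), and the other 3 of these genes were no longer called.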

How the results depend on the processing

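The 3 calls at an FDR below 1% lay close to that threshold. The count was 0 with median scaling, with median scaling over the tested probes (added after the data were seen), with all probes tested, with chip as a fixed or a random block, with position A to H or odd or even position as a covariate, with chip and position together, and without control mouse C66. The calls among all tested probes, 833 in the reported fit, moved differently: they were 967 with odd or even position, 932 with A to H, 675 with all probes tested, 606 with median scaling over the tested probes, 580 without C66, 82 with chip as a random block, 17 with chip as a fixed block and 2 with chip and position. The member count was 1 with normexp background and 1 with array weights. With each of the other 31 arrays left out in turn, also an addition made after the data were seen, it was 0 to 3. Over all 32 such fits Efna5 was called in 10, Robo4 in 9 and Sema4f in 13, their adjusted p-values reached at most 0.0228 (without C65), 0.0222 and 0.0217 (both without C66), and their differences kept their direction. Efna5 and Sema4f also kept theirs in every other setting, but with chip and position together neither was called at either threshold. The 6 calls at an FDR below 10% became 2 with median scaling, 2 with chip as a random block and 0 with chip and position. With chip as a fixed block there were 5: Efna5, Efnb1, Epha7, Ephb6 and Sema6b. Only Efna5 of these was among the 6. Calls among all tested probes at this FDR were 7 with chip and position and were not counted for the other changed settings. Median scaling left 126 calls among all probes at an FDR below 1%, 111 higher and 15 lower, against 372 higher and 461 lower. The 7 calls among other pathway genes became 2 with median scaling and 0 with chip as a fixed block, as a random block, or as a fixed block together with odd or even position. With position alone they were 7 (A to H) and 5 (odd or even).

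Median scaling also took the 10 calls on chip 3 to 6, the 2 calls of chips 1 and 2 against chip 4 to 1, the 1 call between positions to 0 and the 6 calls of the difference between comparisons to 2. With odd or even position the last were 3, and leaving out each chip 3 mouse gave 4 to 7. Calls among all tested probes were not counted for these fits. Whether the members moved differently from the other probes is therefore not known here. On chip 3 itself the same omissions gave 6 to 9, with 6 when A46, A47, C54 or C55 was left out. Those 4 fits called 1211, 1071, 1095 and 974 of all tested probes, against 1660 with all 8 mice. The cause of these changes was not tested.

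Signs changed for these genes, by their probe of highest mean. With median scaling Slit2 was at 0.028 and Unc5c at 0.0032. With chip as a fixed block, Epha7 was at -0.34, Robo4 at 0.031, Sema3f at -0.039, Sema4b at 0.098, Sema5a at -0.047 and Unc5c at 0.034. With chip as a random block, Epha7 was at -0.0071, Sema3f at -0.0042 and Sema5a at -0.0097. With position as a covariate in either form, Robo1 was at -0.0083, Sema3f at -0.029 and Sema5a at -0.025. With chip and position together, Efnb2 was at 0.0050, Epha5 at -0.022, Epha7 at -0.28, Robo4 at 0.12, Sema3f at -0.21, Sema4b at 0.16, Sema5a at -0.18 and Unc5c at 0.0014. With array weights Sema3f was at -0.0027 and Sema5a at -0.016, and without C66 at -0.036 and -0.035. With median scaling over the tested probes Sema3f was at -0.028. No paired analysis was possible because the 2 groups share no mouse numbers. A detection p-value above the limit bounds what can be said of the 35 guidance genes without a tested probe.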
